A study of Mus musculus with 30 samples.

Results

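Skeletal muscle sarcomere and metabolism genes are 37 genes of the 21841 in the expression table that build or fuel the contractile machinery of skeletal muscle fibers. They were chosen by name, as a module of known function and with earlier results of these data known, and all 37 were found. Of these, 9 belong to the thick filament and M-band (Myh1, Myh2, Myh4, Myh7, Mylpf, Myl1, Mybpc1, Mybpc2 and Myom2), 8 to the thin filament (Acta1, Tnnt1, Tnnt3, Tnni1, Tnni2, Tnnc1, Tnnc2 and Neb), 9 to the Z-disc, titin and associated structure (Ttn, Actn2, Actn3, Myoz1, Tcap, Myot, Xirp2, Smpx and Klhl41), 6 to calcium handling (Atp2a1, Casq1, Ryr1, Cacna1s, Trdn and Pvalb) and 5 to metabolism (Ckm, Mb, Eno3, Pygm and Pgam2).

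In a muscle fiber, myosin of the thick filament pulls on actin of the thin filament, and the filaments are anchored at the Z-disc and kept in register by the giant protein titin. Contraction starts when calcium leaves the sarcoplasmic reticulum and binds troponin C, and it ends when calcium is pumped back. Fast fibers carry fast isoforms of myosin and troponin and burn glycogen, whereas slow fibers carry slow isoforms and rely more on oxygen and myoglobin. The mammary fat pad lies close to skin muscle and body wall muscle, and neither tumor epithelium nor mammary stroma builds sarcomeres of this kind.

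The libraries were made from whole mammary tumors of MMTV-PyMT mice (line FVB/N-Tg(MMTV-PyVT)634Mul/J, given as WT in the genotype label), in which a mouse mammary tumor virus promoter drives the polyoma middle T oncogene in mammary epithelium, so that every group, controls included, carried the transgene. There were 30 libraries in 6 groups of 5 tumors, taken per the labels after 72 h of treatment. The groups received vehicle, 5-fluorouracil (5-FU, a pyrimidine antimetabolite, 40 mg/kg every 4 days), gemcitabine (a nucleoside analog, 64 mg/kg every 7 days), KCL-HO-1i (an inhibitor of heme oxygenase-1, 25 µmol/kg daily), KCL-HO-1i with 5-FU, or KCL-HO-1i with gemcitabine. The labels do not give the age of the mice or say how each tumor was cut out. Each group is described as 5 mice and tumors, and the labels give every library an identifier of its own without explaining it, so p-values measure the spread between these tumors.

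Total counts ran from 10067577 to 13622264 per library. Summed over 8 markers of luminal tumor epithelium (Epcam, Krt8, Krt18, Krt19, Cdh1, Erbb2, Elf5 and Spdef), the level lay between 2374 and 5570 CPM (the usual unit of counts scaled by library size, here the effective library size) in all 30 libraries. KCL-HO-1i/gemcitabine replicate 2 (2498 CPM) and KCL-HO-1i replicate 4 (3428 CPM), the pair of libraries with the highest summed level of the 37 genes, were among the 5 lowest, and KCL-HO-1i/5-FU replicate 3 was the lowest. The part of this in the results was not tested. CPM does not correct for gene length. Counts below about 3 reads, here between 0.215 and 0.302 CPM, are too few to rank libraries, and all intervals given cover counting error only.

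Ckm, the muscle creatine kinase that buffers ATP, and Myh4, the heavy chain of the fastest fibers, were among the most abundant members in the libraries that held muscle RNA, while Myh7, the slow heavy chain, and Tnni1, the slow troponin I, were read almost only in 1 library. The 250 bases before the start of each of these 4 genes are shown because the levels of the fast and slow members described below differed so much. The sequences are from RefSeq (build GRCm38.p6), on the strand of the gene, 5′ to 3′. Capitals mark an E-box (CAGCTG), a MEF2 motif or a CArG box, the letters that muscle transcription factors of the MyoD family, MEF2 and SRF are known to recognize.
Ckm, chr7:19410844-19411093, plus strand: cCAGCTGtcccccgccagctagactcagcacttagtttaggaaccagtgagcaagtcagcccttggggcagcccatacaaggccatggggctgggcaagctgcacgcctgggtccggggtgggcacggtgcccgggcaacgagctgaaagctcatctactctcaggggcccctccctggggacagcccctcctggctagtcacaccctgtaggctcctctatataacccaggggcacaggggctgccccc
Myh4, chr11:67237562-67237811, plus strand: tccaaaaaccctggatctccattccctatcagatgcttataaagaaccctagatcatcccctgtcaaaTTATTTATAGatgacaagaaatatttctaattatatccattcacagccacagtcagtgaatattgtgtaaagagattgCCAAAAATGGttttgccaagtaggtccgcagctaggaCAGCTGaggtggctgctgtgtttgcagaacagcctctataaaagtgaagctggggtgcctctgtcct
Myh7, chr14:54994627-54994876, minus strand: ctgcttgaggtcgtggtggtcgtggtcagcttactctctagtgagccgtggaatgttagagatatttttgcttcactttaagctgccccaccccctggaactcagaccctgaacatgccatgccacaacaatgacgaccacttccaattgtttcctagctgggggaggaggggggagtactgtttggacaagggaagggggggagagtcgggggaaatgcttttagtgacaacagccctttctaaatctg
Tnni1, chr1:135799171-135799420, plus strand: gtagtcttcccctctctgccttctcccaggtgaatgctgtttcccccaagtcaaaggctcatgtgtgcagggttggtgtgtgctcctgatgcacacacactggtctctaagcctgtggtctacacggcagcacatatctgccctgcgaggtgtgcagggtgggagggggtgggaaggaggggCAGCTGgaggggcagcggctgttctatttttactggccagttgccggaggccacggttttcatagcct

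The Myh4 window held 3 motifs, with the MEF2 motif starting 182 bases, the CArG box 104 bases and the E-box 67 bases before the start. The Ckm window held an E-box whose first base lay 249 bases upstream, the Tnni1 window held an E-box 68 bases upstream, and the Myh7 window held none of the 3. The window of Tnnc2, an abundant fast member whose sequence is not shown, also held none of them. Of the 28 members with a matching RefSeq window, 13 held CAGCTG (46.43%, against 12.77% of 27025 windows of the same length), 7 held a MEF2 motif (25%, against 3.008%), 2 held a CArG box (7.143%, against 1.399%) and 5 held TATAAA (17.86%, against 12.97%). Both strands were searched, and the motifs did not have to be apart from each other. A match to letters is a description of the sequence and was not tested for binding.

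The summed level of the 37 genes differed 1357-fold between the highest and the lowest tumor. In the vehicle group it was 77.9, 15.3, 33.5, 14.6 and 17.2 CPM, in the order of the replicate numbers. After 5-FU it was 21.1, 139, 123, 18.1 and 398 CPM, and after gemcitabine 39.4, 356, 54.02, 14.8 and 14.8 CPM. These 15 tumors without KCL-HO-1i all stayed below 400 CPM, and each group held tumors both below 25 CPM and above 75 CPM.

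After KCL-HO-1i the summed level was 39.6, 248, 2438, 6554 and 182 CPM. After KCL-HO-1i/5-FU it was 95.5, 26.2, 22.3, 20.1 and 19.7 CPM. After KCL-HO-1i/gemcitabine it was 18.5, 19794, 128, 76.95 and 465 CPM. The 3 tumors above 1000 CPM were KCL-HO-1i replicates 3 and 4 and KCL-HO-1i/gemcitabine replicate 2, and the groups overlapped in every case, since each treated group held at least 1 tumor below the highest vehicle tumor.

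**Figure D1:**
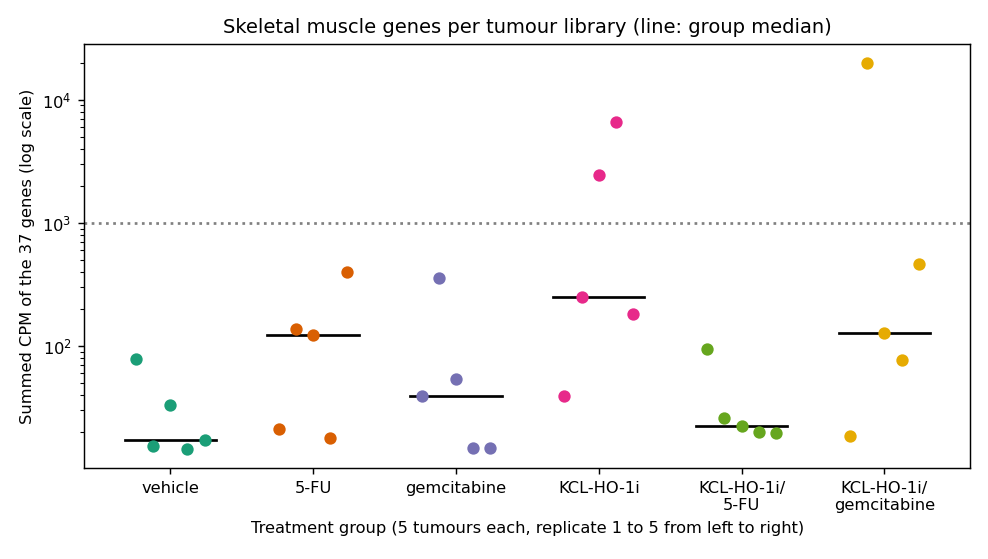
Summed CPM of the 37 muscle genes (vertical axis, log scale) in each of 5 tumors in each of 6 groups (horizontal axis), with a black line at the group median and a dotted line at 1000 CPM. The 3 tumors above the dotted line reach 2438, 6554 and 19794 CPM, while the medians run from 17.2 CPM in the vehicle group to 248 CPM in the KCL-HO-1i group.

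KCL-HO-1i/gemcitabine replicate 2 held 196812 of the 328398 reads of these genes in the whole series, or 59.9%, and the 3 tumors together held 89.9%. In that library the 37 genes took 1.89% of all counts. Every one of the 37 genes was at its highest there. In 11 libraries the summed level was above 100 CPM and in 15 it was below 50 CPM. At the low end, vehicle replicate 4 had 23 members at 0 reads. Bulk RNA cannot tell a larger number of muscle fibers in the sample from more muscle RNA per fiber.

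**Figure D2:**
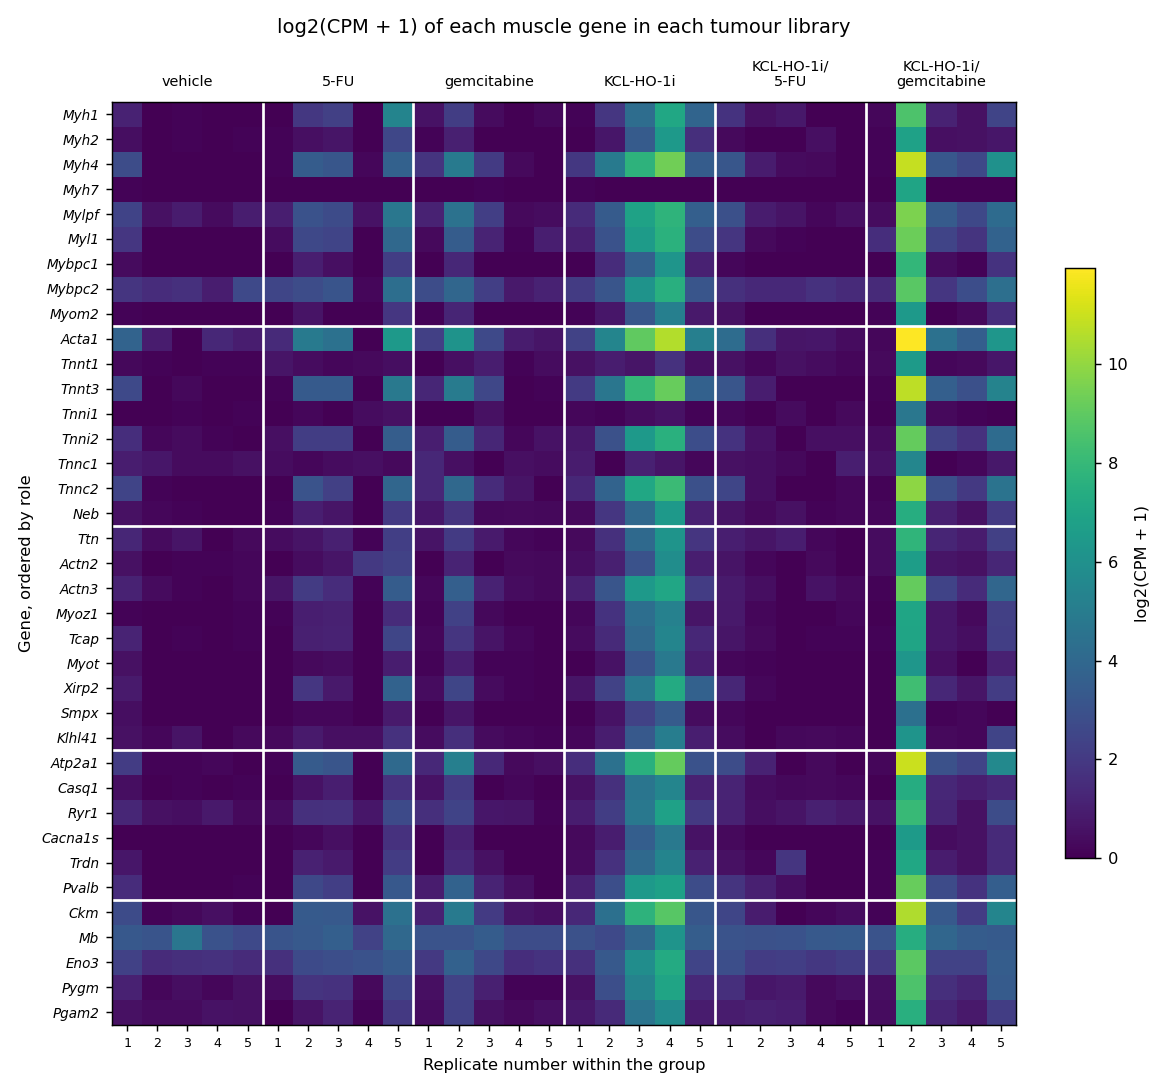
Heat map of log2(CPM + 1) for the 37 genes (rows, ordered by role, separated by white lines) in 30 tumors (columns, grouped by treatment). The brightest column is KCL-HO-1i/gemcitabine replicate 2, the Mb row is lit in every column, and the Myh7 row is dark in every column but that one.

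Among the thick filament genes, Myh4 encodes the heavy chain of type IIB fibers. Myh4 CPM was 5.92, 0, 0, 0 and 0 in the vehicle tumors, 0.0836, 10.1, 8.28, 0.163 and 11.9 after 5-FU and 2.45, 29.6, 3.02, 0.233 and 0 after gemcitabine. It was 2.80, 28.5, 213, 664 and 10.3 after KCL-HO-1i, 8.29, 0.890, 0.264, 0.247 and 0 after KCL-HO-1i/5-FU and 0.0741, 1914, 8.51, 5.05 and 64.5 after KCL-HO-1i/gemcitabine. Only vehicle replicate 1 among the controls had any Myh4 read (63 reads), and 6 of the 30 libraries had none.

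Myh7, which encodes the heavy chain of slow fibers and of the heart, gave 1259 reads (127 CPM) in KCL-HO-1i/gemcitabine replicate 2. In the other 29 libraries it gave at most 1 read, and 26 libraries had none. KCL-HO-1i replicate 4, with 6680 Myh4 reads, had 0 Myh7 reads. Slow myosin transcripts were thus 1 library's signal, with 99.8% of all Myh7 reads.

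The other thick filament members followed Myh4 rather than Myh7, except that Mybpc2 kept a base level. Vehicle replicates 2, 3, 4 and 5 had 25, 24, 11 and 71 Mybpc2 reads and 0 Myh4 reads. Mylpf, the regulatory light chain of fast fibers, ranged from 0.165 to 773 CPM and was above 0 in all 30 libraries. Myl1, an essential light chain of fast fibers, ranged from 0 to 606 CPM, but 28.4% of its 31-base words are shared with the pseudogene Mylf-ps, so its reads could be split between these. Myosin-binding protein C was detected in both its slow form, Mybpc1, with 0 to 241 CPM, and its fast form, Mybpc2, with 0.163 to 477 CPM, and Mybpc2 had at least 10 reads in 29 libraries where Mybpc1 had them in 9. Myom2, which cross-links thick filaments in the M-band, ranged from 0 to 86.3 CPM.

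In the thin filament, Acta1 encodes skeletal muscle actin and was the most abundant member per coding length in the 3 tumors above 1000 CPM. Its CPM was 12.96, 0.872, 0, 1.53 and 0.967 in the vehicle tumors, 1.67, 27.9, 21.1, 0 and 85.6 after 5-FU and 3.84, 69.37, 5.22, 0.854 and 0.596 after gemcitabine. It was 4.16, 41.8, 520.2, 1498 and 35.1 after KCL-HO-1i, 17.7, 2.08, 0.617, 0.658 and 0.313 after KCL-HO-1i/5-FU and 0.148, 3945, 20.7, 10.9 and 77.04 after KCL-HO-1i/gemcitabine. The highest vehicle tumor was exceeded by 4 of 5 tumors after KCL-HO-1i, 3 of 5 after KCL-HO-1i/gemcitabine, 3 of 5 after 5-FU, 1 of 5 after gemcitabine and 1 of 5 after KCL-HO-1i/5-FU.

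Tnnt3 encodes the fast troponin T, which ties the troponin complex to the thin filament. Tnnt3 CPM was 5.17, 0, 0.176, 0 and 0 in the vehicle tumors, 0.0836, 9.57, 9.34, 0 and 27.3 after 5-FU and 1.47, 29.97, 4.76, 0 and 0.0993 after gemcitabine. It was 3.08, 24.6, 250.3, 578 and 12.2 after KCL-HO-1i, 7.99, 0.964, 0, 0 and 0 after KCL-HO-1i/5-FU and 0.0741, 1709, 11.1, 6.63 and 40.1 after KCL-HO-1i/gemcitabine. The tumors ranked much as for Acta1, with vehicle replicate 1 again the highest control.

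Tnni1 encodes the inhibitory troponin of slow fibers. It gave 254 reads in KCL-HO-1i/gemcitabine replicate 2 (25.5 CPM) and was above 0 in 16 other libraries, in none of which it passed 0.458 CPM. The vehicle tumors gave 0, 0, 1, 0 and 1 reads and the KCL-HO-1i tumors 2, 1, 4, 5 and 1 reads, counts too small to rank. Tnni2, its fast counterpart, ranged from 0 to 549 CPM and had at least 10 reads in 17 libraries.

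The remaining thin filament members split by fiber type in the same way. Tnnc2, the calcium-binding troponin of fast fibers, ranged from 0 to 957 CPM, and Neb, the ruler of thin filament length, from 0 to 174 CPM. Tnnt1 and Tnnc1, the slow troponins T and C, gave 905 and 431 reads in KCL-HO-1i/gemcitabine replicate 2 and at most 23 and 19 reads in any other library. Tnnc1 also occurs in the heart and had 10 reads in vehicle replicate 1.

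At the Z-disc, Ttn encodes titin, whose coding sequence of 105639 bases is the longest of the 37. Ttn CPM was 1.41, 0.291, 0.616, 0 and 0.223 in the vehicle tumors, 0.335, 0.568, 1.07, 0.0815 and 3.71 after 5-FU and 0.572, 3.09, 0.824, 0.155 and 0.0993 after gemcitabine. It was 0.215, 2.16, 16.1, 72.1 and 2.64 after KCL-HO-1i, 0.980, 0.593, 0.969, 0.165 and 0 after KCL-HO-1i/5-FU and 0.297, 227, 1.32, 0.904 and 3.76 after KCL-HO-1i/gemcitabine. Outside the 3 high tumors it stayed at or below 3.76 CPM.

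Xirp2 encodes an actin-binding repeat protein at the ends and attachment sites of fibers. Xirp2 CPM was 0.846, 0, 0, 0 and 0 in the vehicle tumors, 0, 2.76, 0.738, 0 and 12.4 after 5-FU and 0.327, 4.59, 0.275, 0.0776 and 0 after gemcitabine. It was 0.574, 4.17, 26.5, 159 and 12.04 after KCL-HO-1i, 1.43, 0.148, 0, 0 and 0 after KCL-HO-1i/5-FU and 0, 313, 1.49, 0.603 and 3.40 after KCL-HO-1i/gemcitabine. KCL-HO-1i replicate 5 and 5-FU replicate 5 stood near 12 CPM, against 26.5 CPM in KCL-HO-1i replicate 3. Their summed levels (182 and 398 CPM) lay relatively further below its 2438 CPM.

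The alpha-actinins cross-link thin filaments in the Z-disc, Actn3 in fast fibers only. Actn3 ranged from 0 to 555 CPM and Actn2 from 0 to 100 CPM. In 5-FU replicate 4 Actn2 gave 37 reads (3.01 CPM) where Acta1 gave 0, Actn3 gave 1 and no other filament or Z-disc member gave more than 6. Tcap, which caps titin, reached 126 CPM, Myoz1 131 CPM, Myot 76.9 CPM, Klhl41 72.6 CPM and Smpx 20.4 CPM.

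Among the calcium-handling genes, Atp2a1 encodes the fast-fiber pump that returns calcium to the sarcoplasmic reticulum. Atp2a1 CPM was 3.29, 0.0727, 0.0879, 0.170 and 0 in the vehicle tumors, 0.0836, 9.90, 7.79, 0 and 16.01 after 5-FU and 1.63, 35.1, 1.56, 0.233 and 0.397 after gemcitabine. It was 1.94, 21.1, 189, 549 and 7.18 after KCL-HO-1i, 5.80, 1.19, 0, 0.247 and 0 after KCL-HO-1i/5-FU and 0.148, 2020, 6.77, 4.52 and 47.7 after KCL-HO-1i/gemcitabine. In KCL-HO-1i/gemcitabine replicate 2 it gave 20081 reads, the most of any member after Acta1.

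Pvalb encodes parvalbumin, a cytosolic calcium buffer of the fastest fibers. Pvalb CPM was 1.88, 0, 0, 0 and 0.0744 in the vehicle tumors, 0, 4.95, 3.69, 0 and 8.89 after 5-FU and 0.898, 12.6, 1.28, 0.388 and 0 after gemcitabine. It was 1.15, 6.26, 88.03, 110.4 and 5.94 after KCL-HO-1i, 2.49, 1.04, 0.352, 0 and 0 after KCL-HO-1i/5-FU and 0.0741, 568, 5.62, 2.34 and 10.9 after KCL-HO-1i/gemcitabine. KCL-HO-1i replicates 3 and 4 lay closer together for Pvalb (88.03 and 110 CPM) than for Acta1 (520.2 and 1498 CPM).

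The calcium release apparatus was read at lower levels. Ryr1, the release channel, ranged from 0.0993 to 264 CPM, and Cacna1s, the voltage sensor that opens it, from 0 to 89.4 CPM with 16 libraries at 0. Casq1, which stores calcium, reached 168 CPM. Trdn, which anchors Casq1 to the release channel, reached 138 CPM and gave 29 reads in KCL-HO-1i/5-FU replicate 3, where Acta1 gave 7.

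In metabolism, Ckm CPM was 5.64, 0.0727, 0.176, 0.424 and 0.0744 in the vehicle tumors, 0, 9.33, 9.10, 0.489 and 21.3 after 5-FU and 1.14, 28.4, 3.11, 0.621 and 0.397 after gemcitabine. It was 1.51, 19.97, 208, 457 and 8.17 after KCL-HO-1i, 4.67, 0.890, 0, 0.165 and 0.313 after KCL-HO-1i/5-FU and 0.0741, 1462, 9.17, 3.39 and 42.2 after KCL-HO-1i/gemcitabine. The order of tumors was close to that of Acta1.

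Pygm encodes the glycogen phosphorylase of muscle. Pygm CPM was 1.13, 0.145, 0.352, 0.170 and 0.446 in the vehicle tumors, 0.335, 2.43, 2.21, 0.244 and 4.89 after 5-FU and 0.408, 4.17, 1.10, 0.0776 and 0.0993 after gemcitabine. It was 0.430, 6.26, 39.4, 125 and 1.57 after KCL-HO-1i, 2.04, 0.667, 0.793, 0.247 and 0.391 after KCL-HO-1i/5-FU and 0.371, 396, 2.07, 1.36 and 9.93 after KCL-HO-1i/gemcitabine. Unlike Myh4, Pygm had at least 1 read in every library.

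Mb encodes myoglobin, the oxygen store of oxidative fibers and of the heart, and it behaved differently from the rest. Mb CPM was 8.64, 7.63, 24.7, 7.12 and 5.28 in the vehicle tumors, 7.61, 9.17, 11.1, 4.15 and 15.4 after 5-FU and 7.35, 7.26, 10.3, 5.82 and 5.76 after gemcitabine. It was 6.89, 5.14, 14.4, 71 and 10.6 after KCL-HO-1i, 7.24, 6.75, 6.96, 9.22 and 9.40 after KCL-HO-1i/5-FU and 7.41, 174, 14.5, 10.02 and 9.31 after KCL-HO-1i/gemcitabine. Every tumor held at least 51 Mb reads. Vehicle replicate 3 held 281 Mb reads, which were 73.8% of its reads from all 37 genes, and it held 0 Acta1 reads.

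Eno3, the muscle enolase, also had at least 10 reads in all 30 libraries, from 1.74 to 484 CPM. Pgam2, the muscle phosphoglycerate mutase, ranged from 0 to 187 CPM. Because Mb and Eno3 were present everywhere, the 5 metabolism genes held 82.2% of the member reads in vehicle replicate 3 and 71.5% in vehicle replicate 4, but 13.7% in KCL-HO-1i/gemcitabine replicate 2. In the 15 libraries below 50 CPM the metabolism share ran from 29.5 to 82.2% and was above 50% in 10 of them.

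**Figure D3:**
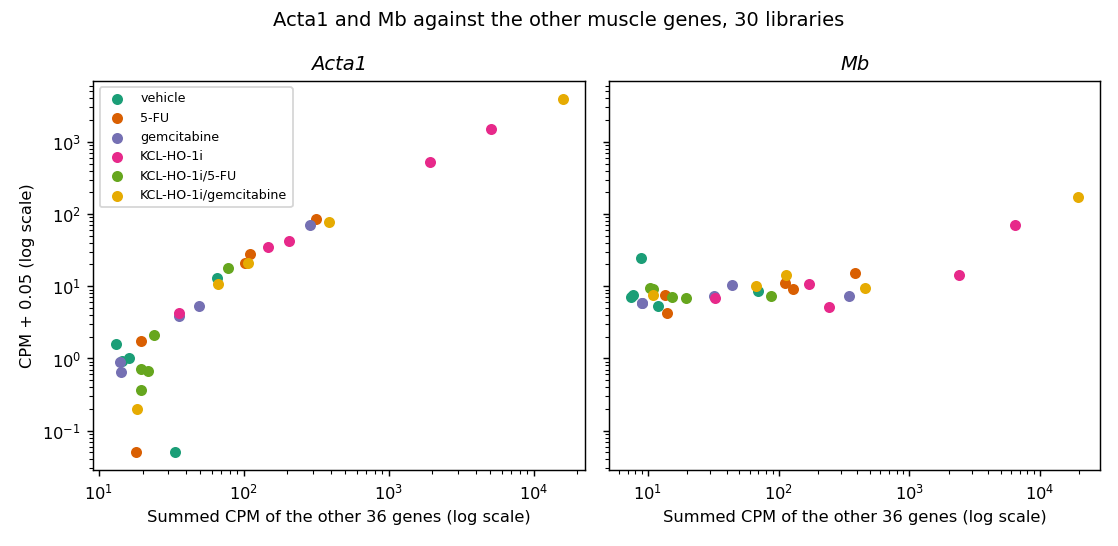
CPM + 0.05 of Acta1 (left) and Mb (right) on log vertical axes against the summed CPM of the other 36 muscle genes on log horizontal axes, one point per tumor, colored by group. Acta1 climbs with the other genes, whereas Mb stays between 4.15 and 24.7 CPM in 27 tumors and rises to 71 and 174 CPM only in KCL-HO-1i replicate 4 and KCL-HO-1i/gemcitabine replicate 2, with 14.4 CPM in KCL-HO-1i replicate 3.

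Levels per coding length were compared within the library with the most muscle reads, KCL-HO-1i/gemcitabine replicate 2. Per kilobase of coding sequence, Acta1 stood at 3488 CPM, Tnnt3 at 2094, Tnnc2 at 1993, Pvalb at 1722 and Mylpf at 1525 CPM. Ckm stood at 1279 CPM and Atp2a1 at 677 CPM per kilobase. Myh4, long and abundant in reads, came to 329 CPM per kilobase, and Ttn was the lowest of all at 2.15. Acta1, Tnnt3 and Tnnc2 were the first 3 in the same order in KCL-HO-1i replicates 3 and 4.

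The balance between fiber types was read from the 4 adult heavy chain genes, each divided by its coding length, in the 14 libraries with at least 50 such reads. Myh4 made up a median of 76.8% of the 4 genes, with 92.7% at most. Myh1, the type IIX chain, made up a median of 15.4%, and Myh2, the type IIA chain, a median of 4.29%. Fast type IIB transcripts thus led in 12 of 14 libraries.

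The exceptions were 5-FU replicate 5 and KCL-HO-1i replicate 5. In 5-FU replicate 5, 548 of 773 heavy chain reads were Myh1 (70.9%, exact 95% binomial interval 67.6 to 74.07%) and 161 were Myh4 (20.8%, 18.0 to 23.9%). In KCL-HO-1i replicate 5, 163 of 313 reads were Myh1 (52.1%, 46.4 to 57.7%). These libraries come from different treatments, and no other library had more than 30.3% Myh1. The 3 fast chains share 31-base words (28.1% of the Myh1 transcript with Myh2 and 19.2% with Myh4), so the authors' counting could move some reads between them. Myh1, Myh2 and Myh4 lie side by side on chr11, between 67171027 and 67260446 of mm10.

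Reads of the slow genes were most numerous in KCL-HO-1i/gemcitabine replicate 2. As shares per coding length, Myh7 made up 4.99% of the heavy chains there, Tnnt1 5.24% of Tnnt1 and Tnnt3, Tnni1 4.52% of Tnni1 and Tnni2, and Tnnc1 4.31% of Tnnc1 and Tnnc2. The slow troponin shares were higher in some libraries with few reads. Tnnt1 reached 16.6% in gemcitabine replicate 3 (10 of 62 reads) and 5.55% in KCL-HO-1i/5-FU replicate 1 (6 of 112 reads). Tnni1 reached 5.86% in KCL-HO-1i/gemcitabine replicate 3 (3 of 52 reads), and Tnnc1 17.2% in vehicle replicate 1 (10 of 58 reads). Of these, the exact 95% intervals of the read shares of Tnnt1 in gemcitabine replicate 3 (8.02 to 27.7%) and of Tnnc1 in vehicle replicate 1 (8.59 to 29.4%) lay above those of KCL-HO-1i/gemcitabine replicate 2 (4.74 to 5.39% and 3.94 to 4.75%). In KCL-HO-1i replicate 4, 0 of 8906 heavy chain reads were Myh7, which allows a share of at most 0.0414%, and Tnnt1 made up 0.409%. Outside the 37, the light chain genes of slow fibers and ventricle, Myl2 and Myl3, and the cardiac heavy chain gene Myh6 had a like distribution, with 445 Myl2, 413 Myl3 and 147 Myh6 reads in KCL-HO-1i/gemcitabine replicate 2 and at most 4 reads in any other library. Myh6 shares 31.7% of the 31-base words of Myh7. Nppa, a heart atrial hormone, had 0 reads there. Embryonic Myh3 and Myh8 gave 4 and 1 reads in the same library.

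KCL-HO-1i replicate 4 had the highest share of Myh2 (9.51%) and of Actn2 among the alpha-actinins (30.2%), both per coding length. The shares were close to these in 5-FU replicate 5 (8.28% and 28.5%), followed by KCL-HO-1i replicate 5 (7.98% and 23.2%). The Actn2 share was 7.77% in KCL-HO-1i replicate 3. KCL-HO-1i replicate 4 was also the library with the most brown adipocyte RNA, with 16903 Ucp1 and 7478 Cidea reads. Elsewhere Ucp1 reached at most 717 reads, in KCL-HO-1i/gemcitabine replicate 1, whose muscle genes summed to 18.5 CPM.

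**Figure D4:**
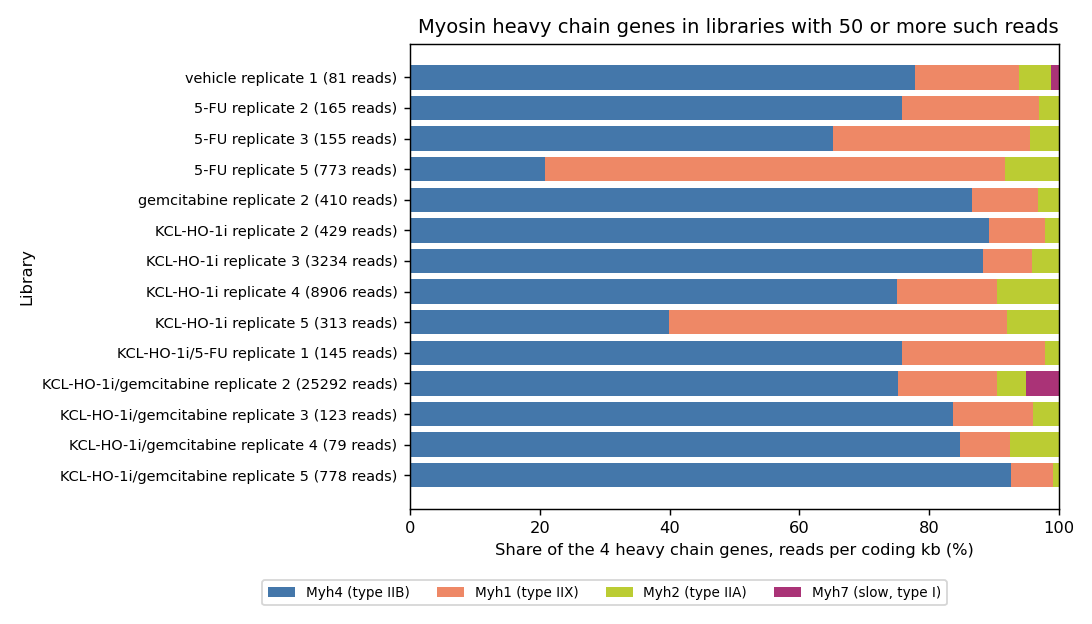
Share of each of 4 myosin heavy chain genes in their sum per coding kilobase (horizontal axis, percent) for the 14 libraries with 50 or more heavy chain reads (rows, with the number of reads). Myh4 fills most of each bar except in 5-FU replicate 5 (20.9%) and KCL-HO-1i replicate 5 (40.0%), and Myh7 is seen in KCL-HO-1i/gemcitabine replicate 2 (4.99%) and as 1 read in vehicle replicate 1.

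Scaled to Acta1, 9 of the other 36 members stayed within a 2.5-fold range across the 12 libraries with at least 200 Acta1 reads, and 26 spanned 3-fold or more or fell to 0. Among the narrow ones, Tnnt3 lay between 31.9 and 58.8 reads per 100 Acta1 reads, Ckm between 23.2 and 54.8, and Myl1 between 13.3 and 21.1. Wider ratios were seen for Myh1 (3.52 to 47.4), Xirp2 (3.49 to 34.3), Mb (2.77 to 69.7), Tnnt1 (0.115 to 2.55) and Myh4 (13.9 to 83.7), and Myh7, Myom2, Smpx, Tnnc1 and Tnni1 fell to 0. The Acta1 reads of these libraries ran from 235 to 39225.

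Across the 30 libraries, the 37 genes rose and fell together. The median Spearman correlation over the 666 pairs was 0.823, and 30 genes had a rho above 0.8 with the sum of the others, led by Tnnt3 (0.958), Mylpf (0.957), Pygm (0.956) and Myh4 (0.953). The genes that stood apart were Actn2 (0.716), Tnnt1 (0.629), Mb (0.456), Tnni1 (0.455), Myh7 (0.210) and Tnnc1 (0.0755). The points share library depth and one dissection per tumor, so these correlations describe 30 libraries and are not independent tests.

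Among 13074 genes with a mean of at least 1 CPM, the 10 outside the 37 whose levels ranked most like their sum were Eef1a2 (rho 0.944), Des (0.885), Ampd1 (0.881), Hjv (0.877), Jsrp1 (0.876), Nrap (0.875), Art1 (0.856), Lmod3 (0.856), Trim63 (0.842) and Cox6a2 (0.841). Of these, 7 belong to a list of 53 further skeletal muscle genes, chosen, like all lists here, with earlier results of these data known. Des encodes the intermediate filament of muscle, Ampd1 the muscle AMP deaminase, Trim63 a muscle ubiquitin ligase and Eef1a2 the elongation factor of muscle and neurons. Des gave 7263 reads in KCL-HO-1i/gemcitabine replicate 2 and 8 in 5-FU replicate 4.

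The wider muscle list, which includes genes that tumors also express, had a median rho of 0.541 per gene with the summed members. The same median was 0.344 for the white adipocyte list and 0.406 for the fibroblast list. As a summed level, however, the wider muscle list had a rho of 0.228, below white adipocyte (0.351) and fibroblast (0.349) genes. Without the 2 farthest libraries it was 0.0504. The list of 13 myogenic factors and satellite cell genes summed highest in 5-FU replicate 4 (310 CPM), above KCL-HO-1i/gemcitabine replicate 2 (143 CPM). It reached 125 CPM in KCL-HO-1i/5-FU replicate 3. The summed members stood at only 18.1 CPM in 5-FU replicate 4 and 22.3 CPM in KCL-HO-1i/5-FU replicate 3. Myf6, the most abundant of these factors in adult fibers, gave 17, 27 and 99 reads in KCL-HO-1i replicates 3 and 4 and KCL-HO-1i/gemcitabine replicate 2 and at most 1 read elsewhere. Myod1 gave 8, 6 and 35 reads and Myog 4, 9 and 16 reads in the same libraries. Pax7, the satellite cell factor, gave at most 22 reads, in 5-FU replicate 4.

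Markers of other tissues were high in some of these tumors, and also in some tumors with little muscle RNA. White adipocyte genes (12 of 12 listed genes tested) summed to 62.5 to 492 CPM in vehicle tumors, 68.7 to 10010.5 CPM after KCL-HO-1i and 44.0 to 10732 CPM after KCL-HO-1i/gemcitabine, with their maxima in KCL-HO-1i replicate 4 and KCL-HO-1i/gemcitabine replicate 2. Brown adipocyte genes summed to 8.71 to 23.4 CPM in vehicle tumors and 23.8 to 3060 CPM after KCL-HO-1i. Fibroblast genes summed to 90.3 to 907 CPM in vehicle tumors and 314 to 12567 CPM after KCL-HO-1i/gemcitabine. White adipocyte genes also reached 2258 CPM in KCL-HO-1i/gemcitabine replicate 1 and 2113 CPM in gemcitabine replicate 5. The muscle genes summed to only 18.5 and 14.8 CPM in these libraries. Fibroblast genes also reached 4533 CPM in KCL-HO-1i/5-FU replicate 3 and 3366 CPM in gemcitabine replicate 5. There the muscle genes summed to 22.3 and 14.8 CPM. The part of these tissues in the muscle signal was not tested.

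Heart markers stayed low. The 10 listed heart genes, Myh6 among them, summed to 2.88 to 5.28 CPM in vehicle tumors and reached 25.3 CPM in KCL-HO-1i/gemcitabine replicate 2. Smooth muscle and pericyte genes were highest, at 1339 CPM, in KCL-HO-1i/gemcitabine replicate 3, whose sarcomere genes summed to 128 CPM.

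The comparison of treatments asked whether the muscle genes differed between groups, and in particular with KCL-HO-1i, the agent of main interest to the study. On a score that averages log2 CPM (prior count 2) over all 37 genes, vehicle tumors stood at -1.32 ± 0.908 (SD, n = 5), 5-FU at 0.138 ± 1.75, gemcitabine at -0.412 ± 1.47, KCL-HO-1i at 2.58 ± 2.58, KCL-HO-1i/5-FU at -0.988 ± 0.867 and KCL-HO-1i/gemcitabine at 1.91 ± 3.66. Against vehicle the mean member difference was 3.90 for KCL-HO-1i, 1.46 for 5-FU, 0.906 for gemcitabine, 3.23 for KCL-HO-1i/gemcitabine and 0.330 for KCL-HO-1i/5-FU. The pooled SD between tumors was 2.11, so only those for KCL-HO-1i/gemcitabine and for KCL-HO-1i alone were larger than 1 SD. Without KCL-HO-1i/gemcitabine replicate 2, that combination stood 1.71 above vehicle, less than 1 SD. All 5 contrasts share the same vehicle tumors.

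The score after KCL-HO-1i/5-FU was 1.13 lower than after 5-FU alone, and after KCL-HO-1i/gemcitabine it was 2.33 higher than after gemcitabine alone, or 0.799 higher without KCL-HO-1i/gemcitabine replicate 2. The mean of the 3 differences made by KCL-HO-1i (alone, with gemcitabine and with 5-FU), called the KCL-HO-1i average, was 1.70. The interaction, the extent to which the KCL-HO-1i difference changed with chemotherapy, was -5.02 with 5-FU and -1.57 with gemcitabine.

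In the gene-wise fit, 33 of the 37 genes passed the filter on low counts, and Myh7, Tnnt1, Tnni1 and Smpx did not. Genes read in 1 group only pass such a filter through that group, so the counts below describe the tested members and give no support on their own. With the edgeR quasi-likelihood test and Benjamini-Hochberg adjustment over 13663 genes, 0 members passed an adjusted p of 0.05 in any of the 10 contrasts. Over all genes the share called was 0.0586% (8 genes) for the KCL-HO-1i average and 0% in each of the other 9 contrasts. DESeq2, run on the same table, called 23 members for the KCL-HO-1i average (8.34% of all genes were called), 25 for KCL-HO-1i against vehicle (0.871%), 31 for KCL-HO-1i/gemcitabine against vehicle (6.46%), 8 for KCL-HO-1i/gemcitabine against gemcitabine (0.329%) and 10 for the interaction with 5-FU (0.161%). It called 0 members for KCL-HO-1i/5-FU against vehicle (2.99%) and against 5-FU (0.322%), and 0 for 5-FU, for gemcitabine and for the interaction with gemcitabine, where it called 0% of all genes.

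At an unadjusted p under 0.05, the edgeR fit had 32 members higher for the KCL-HO-1i average (13.7% of all genes were), 31 for KCL-HO-1i against vehicle (7.36%), 33 for KCL-HO-1i/gemcitabine against vehicle (11.7%) and 33 for KCL-HO-1i/gemcitabine against gemcitabine (6.94%). It had 1 member higher for 5-FU against vehicle (1.65%), and 0 for gemcitabine (2.05%) and for KCL-HO-1i/5-FU against vehicle (9.79%). It also had 0 members higher for KCL-HO-1i/5-FU against 5-FU (6.18%) and for the interaction with 5-FU (4.03%), where 31 members were lower (4.51%), and 1 for the interaction with gemcitabine (0.644%). The median log2 fold change of the tested members was 6.84 for KCL-HO-1i, 2.77 for 5-FU, 7.92 for KCL-HO-1i/gemcitabine, 2.17 for gemcitabine and 0.44 for KCL-HO-1i/5-FU against vehicle, whereas the median of all genes was between -0.02 and 0.03 in all 10 contrasts. The members were read in the same tumors and are not replicates of each other.

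For the KCL-HO-1i average, the members with the smallest p were Pygm (log2 fold change 3.70 ± 0.922 SE, adjusted p = 0.0525), Eno3 (2.68 ± 0.676) and Casq1 (3.88 ± 1.01), the last 2 with the same adjusted p. For KCL-HO-1i against vehicle they were Neb (7.16 ± 1.904), Actn3 (7.06 ± 1.93) and Tnni2 (6.92 ± 1.901), each with an adjusted p of 0.333. Acta1 stood at 7.04 ± 2.19 in that contrast (adjusted p = 0.339), Myh4 at 7.37 ± 2.17 and Xirp2 at 7.96 ± 2.26. Mb stood at 1.01 ± 0.737 (adjusted p = 0.766), the smallest estimate of the 10 tested genes described in full.

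For KCL-HO-1i/gemcitabine against vehicle, Actn3 (8.38 ± 2.00), Pygm (7.52 ± 1.80) and Eno3 (5.44 ± 1.31) had the smallest p, with an adjusted p of 0.0822 each. Atp2a1 stood at 9.26 ± 2.35 and Mb at 2.01 ± 0.753 (adjusted p = 0.134). Against gemcitabine alone, the same combination gave Pygm 6.10 ± 1.64, Eno3 4.38 ± 1.23 and Mybpc1 7.26 ± 2.06 (adjusted p = 0.282 each). For genes with vehicle tumors at or near 0, the fitted fold depends on the prior count and bounds nothing.

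With the chemotherapies alone the estimates were smaller. For 5-FU, Myh1 stood at 5.26 ± 2.18 (adjusted p = 0.999), followed by Cacna1s (5.86 ± 2.97) and Xirp2 (4.31 ± 2.22). For gemcitabine, Myoz1 stood at 4.31 ± 2.33, Atp2a1 at 3.53 ± 2.11 and Actn3 at 2.96 ± 1.91 (adjusted p = 0.941 each). For KCL-HO-1i/5-FU against vehicle, Trdn (2.27 ± 2.09, adjusted p = 0.599), Casq1 (2.01 ± 2.09) and Myoz1 (2.40 ± 2.61) came first, with 29 Trdn reads in replicate 3.

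Against 5-FU alone, KCL-HO-1i/5-FU gave Myh1 -3.70 ± 1.88 (adjusted p = 0.457), Actn2 -3.03 ± 1.69 and Mybpc1 -4.58 ± 2.67. The interaction with 5-FU gave Actn3 -10.07 ± 2.62, Actn2 -9.38 ± 2.48 and Xirp2 -11.21 ± 2.97 (adjusted p = 0.420 each). The interaction with gemcitabine gave Tnnc1 3.93 ± 1.77, Mb 1.54 ± 1.04 and Myoz1 -3.11 ± 2.76 (adjusted p = 0.9997 each). None of these estimates passed the adjusted threshold.

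Tested 1 gene at a time with an exact two-sided permutation test of log2 CPM (5 against 5, 252 regroupings, smallest possible p = 0.00794), KCL-HO-1i differed from vehicle at an unadjusted p under 0.05 for 31 of 37 genes, with a median p of 0.0159 (8.19% of the 13663 tested genes passed the same test). Acta1, Ckm, Myh4, Tnnt3, Atp2a1, Pvalb and Xirp2 each had an exact p of 0.0159, Pygm 0.0238, Ttn 0.0556 and Mb 0.556. For KCL-HO-1i/gemcitabine the count was 18 of 37 (median exact p = 0.0556, 16.6% of all genes), with Myh4 at an exact p of 0.0238, Acta1 at 0.0952 and Mb at 0.381. For 5-FU (4.25% of all genes) and for KCL-HO-1i/5-FU (15.7%) the count in the exact test was 2 each, Tnnt1 and Eno3 in both, and for gemcitabine 0 (2.73%). Tnnt1 did not pass the count filter and is not among the 13663 genes. It had 2, 1, 0, 1 and 1 reads in the vehicle tumors, too few to rank libraries. The KCL-HO-1i tumors other than replicates 3 and 4 also lay above 4 of the 5 vehicle tumors, with 39.6, 248 and 182 CPM summed.

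Leaving out the 3 tumors above 1000 CPM, chosen after their values were seen and by the summed level of these same genes, so that a drop in the KCL-HO-1i contrasts was partly set by the choice, brought the number of members higher at an unadjusted p under 0.05 from 32 to 0 for the KCL-HO-1i average (6.3% of all genes in that fit) and from 33 to 0 for KCL-HO-1i/gemcitabine against gemcitabine (4.45%). It left 15 for KCL-HO-1i (0.967%) and 14 for KCL-HO-1i/gemcitabine against vehicle (7.12%), and the count became 16 in place of 1 for 5-FU against vehicle (2.29%) and 4 in place of 0 for gemcitabine (2.58%). The median log2 fold change of the members fell to 0.44 for the KCL-HO-1i average, 3.07 for KCL-HO-1i and 3.01 for KCL-HO-1i/gemcitabine against vehicle, and stayed at 2.77 for 5-FU. In that fit KCL-HO-1i, KCL-HO-1i/gemcitabine, 5-FU and gemcitabine tumors thus all had higher medians than the same vehicle tumors, and no member passed the adjusted threshold. Without KCL-HO-1i/gemcitabine replicate 2 alone, the counts were 13 for the KCL-HO-1i average, 12 for KCL-HO-1i/gemcitabine against vehicle and 0 against gemcitabine.

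**Figure D5:**
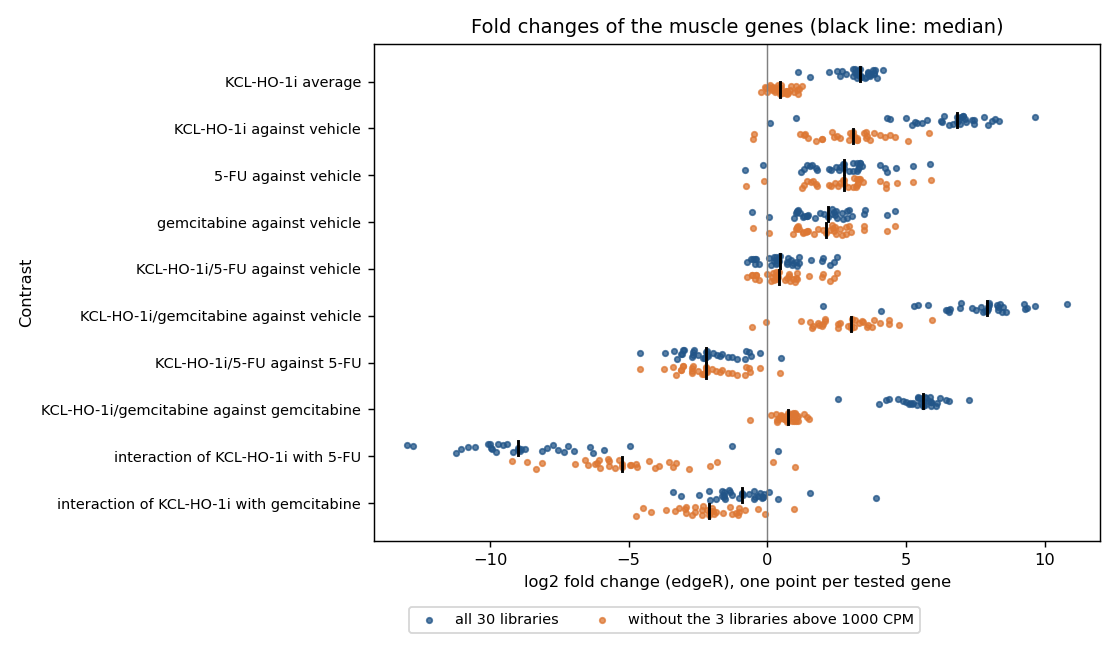
edgeR log2 fold change (horizontal axis) of each tested muscle gene in 10 contrasts (rows), with all 30 libraries (blue) and without the 3 libraries above 1000 CPM (orange), with black lines at the medians. Without those libraries the median for the KCL-HO-1i average moves from 3.32 to 0.44 and that for KCL-HO-1i/gemcitabine against gemcitabine from 5.59 to 0.73, while 5-FU against vehicle stays at 2.77.

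The sample descriptions carry a code, 1 of 13, whose meaning is not stated, and 7 codes occur in more than 1 group. Code 70 was carried by KCL-HO-1i replicates 2 and 3 (248 and 2438 CPM), KCL-HO-1i/5-FU replicate 3 (22.3 CPM) and KCL-HO-1i/gemcitabine replicate 2 (19794 CPM). Code 69 was carried by KCL-HO-1i replicate 4 (6554 CPM) and 5-FU replicate 4 (18.1 CPM). With the code as a covariate, 0 members passed the adjusted threshold in edgeR, and the median log2 fold change against vehicle turned to -0.96 for KCL-HO-1i and -5.31 for 5-FU, while that for KCL-HO-1i/gemcitabine was 2.53. Treatment and code overlap so much that only 12 residual degrees of freedom remained. Of the vehicle codes only code 84 occurred in another group, in vehicle replicate 1 (77.9 CPM) and KCL-HO-1i/gemcitabine replicate 5 (465 CPM). The contrasts with vehicle in this fit therefore rest on vehicle replicate 1, the highest vehicle tumor. The KCL-HO-1i, 5-FU, gemcitabine and KCL-HO-1i/5-FU groups shared no code with vehicle.

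The listed genes of other tissues were read in the same fit for the KCL-HO-1i average, in which 0 genes of any list passed the adjusted threshold. At an unadjusted p under 0.05, 17 of 31 tested genes of the wider skeletal muscle list were higher, 12 of 12 white adipocyte genes, 8 of 8 fibroblast genes, 7 of 10 smooth muscle and pericyte genes, 4 of 8 brown adipocyte genes and 3 of 7 peripheral nerve genes. Of the myogenic list 2 of 4 tested genes were higher, of the tendon and fascia list 2 of 6, of the heart list 1 of 4, and of the epidermis (6 tested) and luminal epithelium (8 tested) lists 0. Among the 37 genes 32 of 33 tested were higher in the same fit, and among all genes 13.7%.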

How the data were processed

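Total RNA of whole tumors was sequenced after stranded library preparation (NEBNext Ultra II Directional, per the labels). Per the submitters' processing notes and the study's methods, the authors used FastQC 0.11.9, STAR 2.7.9a, Salmon 1.9.0 and tximport, with build mm10. The annotation release is not given in the sources used here. The authors deposited unscaled expected counts per gene, of which 38.0% are not whole, and 3255 of 21841 genes had no reads. They were rounded. The study's methods give another treatment time and gemcitabine dose than the labels, which are used here.

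Groups came from the labels. The 37 genes and all gene lists were chosen with earlier results of these data known. Genes were tested with edgeR 4.0.16 in R 4.3.3 (filterByExpr, minimum count 10, 13663 genes tested, TMM, robust quasi-likelihood fit over 6 group means and 30 libraries, biological coefficient of variation 0.401), with Benjamini-Hochberg adjustment over all genes. The genes left out held 0.0564% of counts. SE is the log2 fold change divided by the square root of F. Single genes were also tested by exact permutation, a test added after the values were seen. The same fit was also run on simulated counts with known changes, and no result given here rests on that run. No 2 libraries of a group were duplicates (lowest chi-square per degree of freedom 19.9). Same-numbered libraries did not pair (mean residual correlation 0.00284 over 75 pairs, from -0.583 to 0.480).

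Genes given in full are Acta1, Ckm, Myh4, Myh7, Tnnt3, Tnni1, Ttn, Atp2a1, Pvalb, Mb, Pygm and Xirp2, with the 3 members of smallest unadjusted p in each contrast and the 10 other genes most like the summed members. Coding lengths and gene positions are from GENCODE vM21, promoters from RefSeq. Isoform shares use libraries with at least 50 reads of the pair. Alternatives were RLE normalization, DESeq2 1.42.0, no count filter, a replicate block, the code in the sample descriptions as covariate, each library left out, and, added after the values were seen, the 3 highest libraries left out.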

Additional observations from a re-analysis of the deposited data

Results flagged for a closer look

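Within a group of 5 tumors, a value was singled out where its gap to the nearest tumor exceeded 0.71 of the range of the group (Dixon, 95%). The summed level and the 12 genes given in full were examined in 6 groups, 78 cases in all, of which 47 were singled out. The rate of about 1 in 20 by chance holds for normally distributed values. These were raw CPM, skewed and often 0, so that rate does not apply to them. The genes share their tumors, so these cases are not independent. In gemcitabine replicate 2 the values were a summed level of 356, Acta1 69.37, Ckm 28.4, Myh4 29.6, Tnnt3 30.0, Ttn 3.09, Atp2a1 35.1, Pvalb 12.6, Pygm 4.17 and Xirp2 4.59 CPM. In KCL-HO-1i/5-FU replicate 1 the values were a summed level of 95.5, Acta1 17.7, Ckm 4.67, Myh4 8.29, Tnnt3 7.99, Atp2a1 5.80 and Xirp2 1.43 CPM. In KCL-HO-1i/gemcitabine replicate 2 the values were a summed level of 19794, Acta1 3945, Ckm 1462, Myh4 1914, Myh7 127, Tnnt3 1709, Tnni1 25.5, Ttn 227, Atp2a1 2020, Pvalb 568, Mb 174, Pygm 396 and Xirp2 313 CPM. In vehicle replicate 1 the values were Acta1 13.0, Ckm 5.64, Myh4 5.92, Myh7 0.0939, Tnnt3 5.17, Atp2a1 3.29, Pvalb 1.88 and Xirp2 0.846 CPM. In gemcitabine replicate 3 the values were Myh7 0.0916 and Tnni1 0.458 CPM. In KCL-HO-1i replicate 1 the value was Myh7 0.0717 CPM. In 5-FU replicate 5 the values were Ttn 3.71 and Xirp2 12.4 CPM. In KCL-HO-1i replicate 4 the values were Ttn 72.1, Mb 71 and Xirp2 159 CPM. In vehicle replicate 3 the value was Mb 24.7 CPM. The Myh7 values other than that of KCL-HO-1i/gemcitabine replicate 2 each rest on 1 read. No cause was tested.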

How the results depend on the processing

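The 0 members that passed the adjusted threshold in all 10 contrasts stayed 0 with RLE normalization, without the count filter, with a replicate block, with the description code and without the 3 tumors above 1000 CPM. DESeq2 called 23 members for the KCL-HO-1i average, 31 for KCL-HO-1i/gemcitabine and 25 for KCL-HO-1i against vehicle, 8 for KCL-HO-1i/gemcitabine against gemcitabine and 10 for the interaction with 5-FU. Leaving out 1 library at a time gave 0 to 13 members for the KCL-HO-1i average (above 0 without 7 of 30 libraries: 5-FU replicate 5, gemcitabine replicate 5, KCL-HO-1i replicates 1 and 5, KCL-HO-1i/5-FU replicates 4 and 5 and KCL-HO-1i/gemcitabine replicate 4), and 0 to 26 for KCL-HO-1i/gemcitabine against vehicle (8 where KCL-HO-1i/5-FU replicate 3 was left out, 26 where replicate 4 of KCL-HO-1i/gemcitabine was). The cause was not tested.

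Over all genes, the 8 calls of the KCL-HO-1i average became 1139 with DESeq2, 12 with the replicate block, 0 with the description code and 0 without the 3 high tumors, and 3 to 1130 with 1 library left out. Against vehicle, DESeq2 called 883 genes for KCL-HO-1i/gemcitabine, with 408 after KCL-HO-1i/5-FU and 119 after KCL-HO-1i alone. It called 44 for KCL-HO-1i/5-FU against 5-FU, 45 for KCL-HO-1i/gemcitabine against gemcitabine and 22 for the interaction with 5-FU, all 0 in the edgeR fit. With the replicate block, 3 genes passed in the contrast of KCL-HO-1i/5-FU with vehicle. The replicate numbers share only a number, and the block changed no call among the members. The description code gave 1 gene for gemcitabine. With 1 library left out, the counts ran from 0 to 3 for gemcitabine, 0 to 189 after KCL-HO-1i/gemcitabine and 0 to 186 after KCL-HO-1i/5-FU against vehicle, and 0 to 2 (KCL-HO-1i/5-FU against 5-FU).

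With 1 library left out, the mean member difference ran from 1.71 to 4.08 for KCL-HO-1i/gemcitabine and from 0.302 to 1.31 for gemcitabine against vehicle, from 0.799 to 3.18 for KCL-HO-1i/gemcitabine against gemcitabine, from -3.10 to -0.717 for the interaction with gemcitabine and from -1.60 to -0.574 for KCL-HO-1i/5-FU against 5-FU. It ran from 0.902 to 1.93 for 5-FU and from -0.0394 to 0.735 for KCL-HO-1i/5-FU against vehicle. The values 1.71, 0.799 and -3.10 came without KCL-HO-1i/gemcitabine replicate 2, -0.717 without replicate 1 of that group, 0.302 without gemcitabine replicate 2, 0.902 and -0.574 without 5-FU replicate 5, 0.735 without vehicle replicate 1 and -0.0394 when replicate 1 of KCL-HO-1i/5-FU was left out. Without the 3 high tumors the KCL-HO-1i average fell to 0.609 and KCL-HO-1i against vehicle to 2.15. The mean member differences, the summed levels per group and the isoform shares moved by less than 1 SD between tumors (2.11 for the mean member difference) under every alternative run. These were RLE, a prior count of 0.5, filtered members only, raw library sizes, a minimum of 200 reads per pair, and 1 or the 3 highest libraries left out. For the summed levels with 1 library left out this was fixed in advance, since the mean of 5 tumors cannot then move by 1 SD of the same tumors. Without its highest tumor the mean summed level fell from 4096 to 172 CPM for KCL-HO-1i/gemcitabine and from 1892 to 727 CPM for KCL-HO-1i. The mean member difference also had little room to move that far when 1 library was left out. The SD of 2.11 was computed with the 3 high tumors, so it is also a wide limit for leaving them out. Without them the interaction with 5-FU went from -5.02 to -3.27, within that limit. With a minimum of 200 reads, the median Tnnt1 share went from 3.39 to 1.43%, against an SD of 3.96%.

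Of 58 single-gene results, 29 of 2088 values under alternatives changed sign. In the fit with the description code, the contrasts with vehicle rest on vehicle replicate 1 alone. With the description code, KCL-HO-1i against vehicle gave Acta1 -0.70, Ckm -0.54, Mb -2.75, Neb -0.99, Pvalb -0.70, Pygm -0.55, Tnni2 -0.28, Tnnt3 -0.15, Ttn -2.53 and Xirp2 -1.60. It gave Actn3 -4.14, Atp2a1 -5.12 and Myoz1 -2.42 for gemcitabine, Cacna1s -0.41, Myh1 -4.31 and Xirp2 -6.44 for 5-FU, Casq1 -6.58, Myoz1 -4.45 and Trdn -4.97 for KCL-HO-1i/5-FU, and Myoz1 5.87 for the interaction with gemcitabine. Without the 3 high tumors Mb gave -0.49 for KCL-HO-1i, -0.0909 for the KCL-HO-1i average and -0.0511 for KCL-HO-1i/gemcitabine against vehicle, and Tnnc1 -0.10 for the interaction with gemcitabine. Without KCL-HO-1i/gemcitabine replicate 2, Mb gave -0.0578 against vehicle and -0.53 for that interaction, and Tnnc1 -0.73. Without KCL-HO-1i replicate 4 Mb gave -0.21 for KCL-HO-1i, and without gemcitabine replicate 2 Myoz1 gave 0.37 for the interaction with gemcitabine. With 1 library left out, Mb ran up to 2.55 for KCL-HO-1i/gemcitabine and 1.57 for KCL-HO-1i against vehicle and 2.76 for the interaction with gemcitabine, where Tnnc1 ran up to 4.83 and Myoz1 down to -7.68. The exact permutation test kept the direction of all 34 single-gene results it covered, and 7 of them moved above an unadjusted p of 0.05. Depth limits members near 0 reads in vehicle tumors.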
